A study of Mus musculus with 5 samples.

Results

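NKX2-1 binding at the genes of the YAP, TAZ and TEAD transcriptional regulators was described in the lungs of mice of wild-type genotype, 10 days after birth. Whole lung tissue was used. The 6 genes were Yap1, Wwtr1 (which encodes TAZ), Tead1, Tead2, Tead3 and Tead4, of 21631 protein-coding genes in all. Chromatin immunoprecipitation followed by sequencing was carried out with 4 antibodies against the lung epithelial homeodomain factor NKX2-1 (Abcam133737, Millipore07-601, Abcam76013 and Abcam133638), each with 1 library of 43031331 to 46547989 filtered tags, beside 1 input library of 10653749. Per the labels' protocol the sonicated chromatin of aliquots was pooled, and all file headers name the same input. The libraries are therefore not shown to be independent animals, no difference between them has a replicate check, and no p-value is given. Peaks were taken when the summit lay in one of the genes or no more than 20 kb from it. Peaks of different antibodies sharing 1 bp or more were joined into a region, which was then scored by how many antibodies had a peak in it. This gave 81 of the 68919 regions of the genome.

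YAP and TAZ are the coactivators at the end of the Hippo pathway. When its kinases are active they are phosphorylated and kept in the cytoplasm, and otherwise they enter the nucleus, where, having no DNA-binding domain of their own, they bind DNA through the TEAD proteins. In lung epithelium YAP and TAZ are known for their part in forming and regenerating alveolar type 1 cells, the flat cells of gas exchange, and TAZ is also known to bind NKX2-1 and to coactivate the surfactant protein C promoter with it. Lung tissue is a mixture of cell types, and these data cannot tell which of them carried NKX2-1 at a given region. The same rule gave 8 regions with all 4 antibodies at Nkx2-1 itself and 11 at the surfactant gene Sftpc, and none at the endothelial gene Cdh5 or the leukocyte gene Ptprc. Of all protein-coding genes only 64.8% had such a region, so its absence at single genes says little about cell types.

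All 6 genes had at least 1 region with peaks of all 4 antibodies, as did 64.8% of all protein-coding genes. Of the 81 regions, 37 had all 4 antibodies (45.7%, exact 95% interval 34.6 to 57.1), 9 had 3, 14 had 2 and 21 had 1. Over the whole genome the share with all 4 was 45.9%, so the antibodies coincided at these genes about as often as elsewhere. Tead1 had 15 regions with all 4 antibodies, Tead4 had 7, Wwtr1 6, Tead3 5, Yap1 3 and Tead2 1. Across all protein-coding genes the median was 1 (quartiles 0 and 3). Of the 37, 26 had the summit inside the gene itself (70.3%) and 11 lay in the flanks. The 6 genes together also made up most of the length of their windows, so this share alone shows no preference for gene bodies. The share inside was about the same for the regions with 1 or 2 antibodies, 26 of 35 (74.3%). Of the 11 regions in the flanks with all 4 antibodies, 5 lay in or nearer another protein-coding gene, 4 of them at Tead3 and 1 at Tead2. Without these, 32 regions at 5 genes remained, and Tead2 had none.

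**Figure D1:**
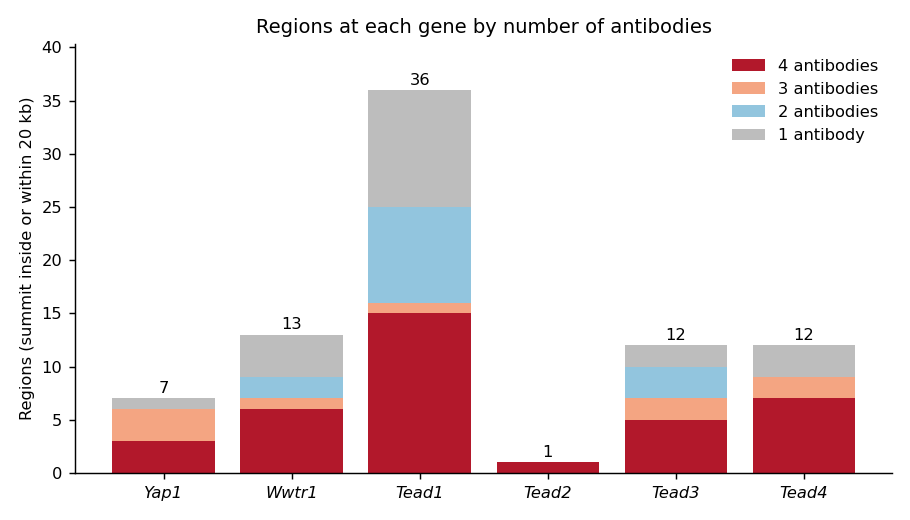
Number of regions (y axis) with a summit inside or within 20 kb of each gene (x axis), stacked by how many of the 4 antibodies gave a peak. The number over each bar is the total; Tead1 has 36 regions and Tead2 has 1.

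Yap1 (gene ID 22601, mm10 chr9:7931999-8004638, minus strand, 72.6 kb) had the weakest best region of the 6 genes. It encodes YAP. Its strongest region by mean fold lay inside the gene, 33.8 kb from the nearer end (chr9:7965545-7965940), with a fold enrichment of 7.20 with Abcam133737, 9.94 with Millipore07-601, 7.31 with Abcam76013 and 7.11 with Abcam133638. Fold enrichment is the authors' ratio of the tag pileup at the summit to the local background. A second region with all 4 antibodies lay 2.19 kb downstream of the gene (chr9:7929669-7930062), with folds of 5.59, 9.92, 7.27 and 7.69 in the same order. The mean folds of these 2 regions, 7.89 and 7.62, differed by less than the spread between libraries, and the pileup per 1000000 filtered tags was higher in the downstream region in 3 of 4 libraries (0.623, 1.14, 0.818 and 0.871, against 0.730, 1.07, 0.753 and 0.715 inside the gene). The third stood on the gene start, with a summit 22 bp upstream of the annotated gene (chr9:8004348-8005056), and was weaker, at 4.94, 5.71, 4.06 and 6.90. It was part of a close group. Further regions with summits 0.801 and 1.50 kb inside the gene were each called with Millipore07-601, Abcam76013 and Abcam133638, and Millipore07-601 alone gave a peak 1.50 kb upstream. Abcam133737, a library with one of the shorter peak lists, was the antibody without a peak in all 3 of the Yap1 regions called with 3 antibodies. Of all regions of the genome called with 3 antibodies, 46.5% lacked it.

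Wwtr1 (gene ID 97064, chr3:57455644-57575910, minus strand, 120.3 kb), the TAZ gene, had a stronger best region than Yap1, while the median of the mean fold over its regions with all 4 antibodies was 7.67 against 7.62. At Wwtr1 5 of the 6 regions with all 4 antibodies lay inside the gene, which made up 120.3 of the 160.3 kb of its window. They formed 2 groups with a gap of 61.5 kb between them. In the group nearer the 3′ end the strongest region (chr3:57471041-57471735) lay 15.6 kb from the gene end, with folds of 8.65 with Abcam133737, 14.0 with Millipore07-601, 12.2 with Abcam76013 and 17.0 with Abcam133638. A weaker region stood 1.69 kb from it (chr3:57469293-57469730, folds 6.79, 9.52, 6.29 and 9.27). In the other group the strongest region lay 40.2 kb from the gene start (chr3:57535551-57536117), with folds of 8.65, 17.6, 10.4 and 12.9. The antibody with the highest fold thus differed between these 2 strong regions, and Abcam133737 was lowest at both.

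The Wwtr1 start also carried all 4 antibodies, with a summit 32 bp upstream of the gene (chr3:57575737-57576305). Its folds were 6.79 with Abcam133737, 10.1 with Millipore07-601, 2.88 with Abcam76013 and 9.70 with Abcam133638. The pileup at the summit per 1000000 filtered tags, called the scaled pileup from here on, was 0.687, 1.16, 0.581 and 0.983, and so spread less. The local background, recovered from pileup and fold with 1 tag added to the pileup and to the background, was 3.86, 4.04, 8.72 and 3.64 tags. A single input tag counted for 4.37, 4.04, 4.36 and 4.20 tags after scaling. The low fold with Abcam76013 thus stood over a higher background than in the other 3 libraries.

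The starts of Yap1 and Wwtr1 are shown because the summits of all 4 antibodies lay on them, and that of Tead3 because a region with all 4 antibodies overlapped its window by 87 bases. The sequences are RefSeq promoter windows on GRCm38.p6 (the coordinates of mm10), from 250 bases before to 50 after the annotated start, 5′ to 3′ on the minus strand. For Wwtr1 and Tead3 the first of several annotated windows is given. Capitals mark the letters GGAATG, the core of the element that TEAD proteins recognise.
Yap1 (chr9:8004547-8004846): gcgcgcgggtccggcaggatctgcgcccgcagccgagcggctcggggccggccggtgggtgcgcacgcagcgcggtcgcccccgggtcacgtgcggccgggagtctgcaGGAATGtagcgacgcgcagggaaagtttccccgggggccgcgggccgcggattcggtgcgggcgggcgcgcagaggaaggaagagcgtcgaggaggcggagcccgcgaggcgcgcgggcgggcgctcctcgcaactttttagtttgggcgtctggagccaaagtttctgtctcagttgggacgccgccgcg
Wwtr1 (chr3:57575861-57576160): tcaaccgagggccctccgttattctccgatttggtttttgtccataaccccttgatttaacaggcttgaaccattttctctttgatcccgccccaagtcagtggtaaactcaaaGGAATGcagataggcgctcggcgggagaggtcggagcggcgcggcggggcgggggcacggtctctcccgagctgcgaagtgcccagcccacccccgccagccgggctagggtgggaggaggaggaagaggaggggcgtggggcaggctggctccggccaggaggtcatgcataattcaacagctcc
Tead3 (chr17:28350756-28351055): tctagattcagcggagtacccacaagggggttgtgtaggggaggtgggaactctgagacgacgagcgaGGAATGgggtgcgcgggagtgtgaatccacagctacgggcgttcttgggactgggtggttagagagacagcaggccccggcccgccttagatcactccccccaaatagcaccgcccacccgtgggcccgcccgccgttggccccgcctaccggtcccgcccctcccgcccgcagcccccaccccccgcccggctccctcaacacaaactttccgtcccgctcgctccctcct

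The windows were searched on both strands for GGAATG and for CAAGTG and CTCAAG, which are cores of sites of NKX2 factors. GGAATG occurred once in each of the 3 printed windows. The second Tead3 window (chr17:28350551-28350850), which a peak of 1 antibody overlapped, held it 3 times, counting both strands. The third Tead3 window (chr17:28350297-28350596), also overlapped by a peak of 1 antibody, did not hold it on either strand. In the printed windows it lay at bases 110 to 115 in Yap1, 115 to 120 in Wwtr1 and 69 to 74 in Tead3. Its centre was 74.5 bp from the region summit in Yap1, 102 bp in Wwtr1 and 313 bp in Tead3. Of the first promoter window of 17274 protein-coding genes, 13.3% held it on either strand, and of the 3269 with a summit of each antibody in the window 11.5% did. Neither NKX2 core occurred in any of the 3 printed windows, nor in 74.8% of the 17274 and 72.8% of the 3269. CAAGTG was in 12.9% and CTCAAG in 15.2% of the 17274. The share of G and C was 74.0% in Yap1, 61.7% in Wwtr1 and 67.7% in Tead3, against a median of 56.3% (quartiles 48.3 and 64.3), so the Wwtr1 window lay within the quartiles and the others above them. The Tead2 window (chr7:45215542-45215841) had no peak of any antibody and none of these letters, and the windows of Tead1 and Tead4 were not used here.

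Tead1 (gene ID 21676, chr7:112679356-112906784, 227.4 kb), a gene for a TEAD protein that binds DNA and recruits YAP and TAZ, carried the most regions of the 6 genes, 36, of which 15 had all 4 antibodies. At least as many were found at 90 of the 21631 protein-coding genes (0.416%). Tead1 is long, against a median length of 17.3 kb for all protein-coding genes, and per 100 kb of gene and flanks it had 5.61 regions with all 4 antibodies, which lay at percentile 83.9 of all protein-coding genes. Of the 15, 13 lay inside the gene, which made up 227.4 of the 267.4 kb of its window. The median distance from one to the next was 10.6 kb and the largest gap 43.6 kb.

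The strongest Tead1 region lay deep inside the gene, 78.2 kb from the nearer end (chr7:112828354-112828725). Its folds were 12.3 with Abcam133737, 17.9 with Millipore07-601, 12.5 with Abcam76013 and 19.2 with Abcam133638, and the 4 summits fell within 6 bp of each other. By the scaled pileup another region came first in all 4 libraries. It lay 109.2 kb inside the gene (chr7:112788131-112788797), at 1.65, 2.88, 1.64 and 2.12, against 1.40, 2.07, 1.42 and 1.97 in the strongest region by fold. Its folds were 14.5, 13.8, 14.4 and 10.2, over recovered backgrounds of 4.37, 8.08, 4.36 and 8.41 tags. Abcam133638 thus had a higher pileup than Abcam133737 there (95 against 77 tags) and a lower fold.

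At the lower-coordinate end of Tead1 a pair of regions with all 4 antibodies flanked the annotated boundary. The stronger had its summit 753 bp inside the gene (chr7:112679803-112680328), with folds of 8.57, 13.1, 9.74 and 12.3. The other lay 636 bp outside it (chr7:112678416-112679109), with folds of 5.97, 7.19, 5.28 and 6.68. The region inside the gene was higher in every library. Other strong regions lay 40.9 kb (chr7:112720068-112720574, mean fold 11.2) and 50.9 kb (chr7:112730084-112730574, mean fold 10.2) from that end. The latter had the largest spread between libraries of the 37 regions with all 4 antibodies, from 0.666 with Abcam133737 to 1.65 with Millipore07-601 in scaled pileup, a ratio of 2.48.

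Tead4 (gene ID 21679, chr6:128227143-128300813, 73.7 kb), another TEAD gene, had 12 regions, of which 7 had all 4 antibodies and 6 of these lay inside the gene. The gene made up 73.7 of the 113.7 kb of its window. Its density of regions with all 4, 6.16 per 100 kb, lay at percentile 86.2. The strongest region stood 4.78 kb inside the upper-coordinate end (chr6:128295878-128296468), with folds of 11.0 with Abcam133737, 14.5 with Millipore07-601, 10.1 with Abcam76013 and 15.2 with Abcam133638. A region with all 4 antibodies spanned that end itself (chr6:128300313-128301078, summit 348 bp inside), with folds of 8.85, 7.40, 5.68 and 9.91. Here Abcam133737 exceeded Millipore07-601, against the order at the strongest region. A further region lay 1.41 kb beyond the other end (chr6:128225398-128225866, folds 5.92, 7.83, 7.01 and 10.1). The remaining 4 were weak, with mean folds of 4.94 to 5.60, and 2 of them stood 0.640 kb apart, 28.3 and 28.9 kb inside the lower-coordinate end.

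Tead3 (gene ID 21678, chr17:28331671-28350805, minus strand, 19.1 kb) had the strongest region of the set within its window, but that region lay inside the neighbouring gene Tulp1, which encodes a protein of photoreceptor cells. It stood 5.25 kb upstream of Tead3 (chr17:28355780-28356309). The pileup at its summit was 137 tags with Abcam133737, 203 with Millipore07-601, 154 with Abcam76013 and 188 with Abcam133638, and the fold 28.4, 43.1, 31.5 and 40.7. Its mean fold, 35.9, lay at percentile 99.7 of the 31606 regions of the genome with all 4 antibodies. A second region inside Tulp1, 9.95 kb upstream of Tead3 (chr17:28360483-28361355), had folds of 6.98, 10.2, 11.4 and 10.1. A region 18.2 kb downstream (chr17:28313246-28313853, mean fold 7.76) lay 0.043 kb from Fance, a gene of the Fanconi anaemia DNA repair pathway.

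Within Tead3 itself 1 region had all 4 antibodies (chr17:28340750-28341419), with folds of 5.15 with Abcam133737, 6.98 with Millipore07-601, 5.89 with Abcam76013 and 9.27 with Abcam133638. Another stood between Tead3 and Tulp1 (chr17:28350969-28351509), 492 bp upstream of Tead3 and 0.218 kb from Tulp1, and cannot be given to either gene by position. Its folds were 4.52, 6.17, 3.80 and 5.85, lower than inside the gene in all 4 libraries. Its scaled pileup was 0.924, 1.28, 0.775 and 1.21, higher than inside the gene (0.516, 0.744, 0.603 and 0.938) in all 4. The recovered background was 8.08 to 8.74 tags between the genes and 3.64 to 3.93 inside Tead3, so the order of these 2 regions rested on the input.

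Tead2 (gene ID 21677, chr7:45215792-45233468, plus strand, 17.7 kb) differed from the other 5 in having no peak of any antibody inside the gene or nearer than 11.2 kb to it. Its 1 region lay 11.2 kb upstream (chr7:45204450-45204795), inside Kash5, a gene for a meiotic protein of the nuclear envelope, and 0.307 kb from the end of that gene. Folds there were 10.3 with Abcam133737, 11.0 with Millipore07-601, 10.6 with Abcam76013 and 14.0 with Abcam133638. The other 5 genes had a region with all 4 antibodies inside (5 of 6, 83.3%, exact 95% interval 35.9 to 99.6), as did 36.2% of all protein-coding genes, and within 1 kb of a gene end (also 5 of 6), as did 33.5%. Tead3 entered the latter count only through the region between it and Tulp1, 492 bp from Tead3 and 0.218 kb from Tulp1. The 6 genes were chosen with earlier results of these data known, so the interval does not test either share against its background. Gene length was not matched either. The genes with such regions, other than Tead3, are 72.6 to 227.4 kb long, against the median of 17.3 kb.

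**Figure D2:**
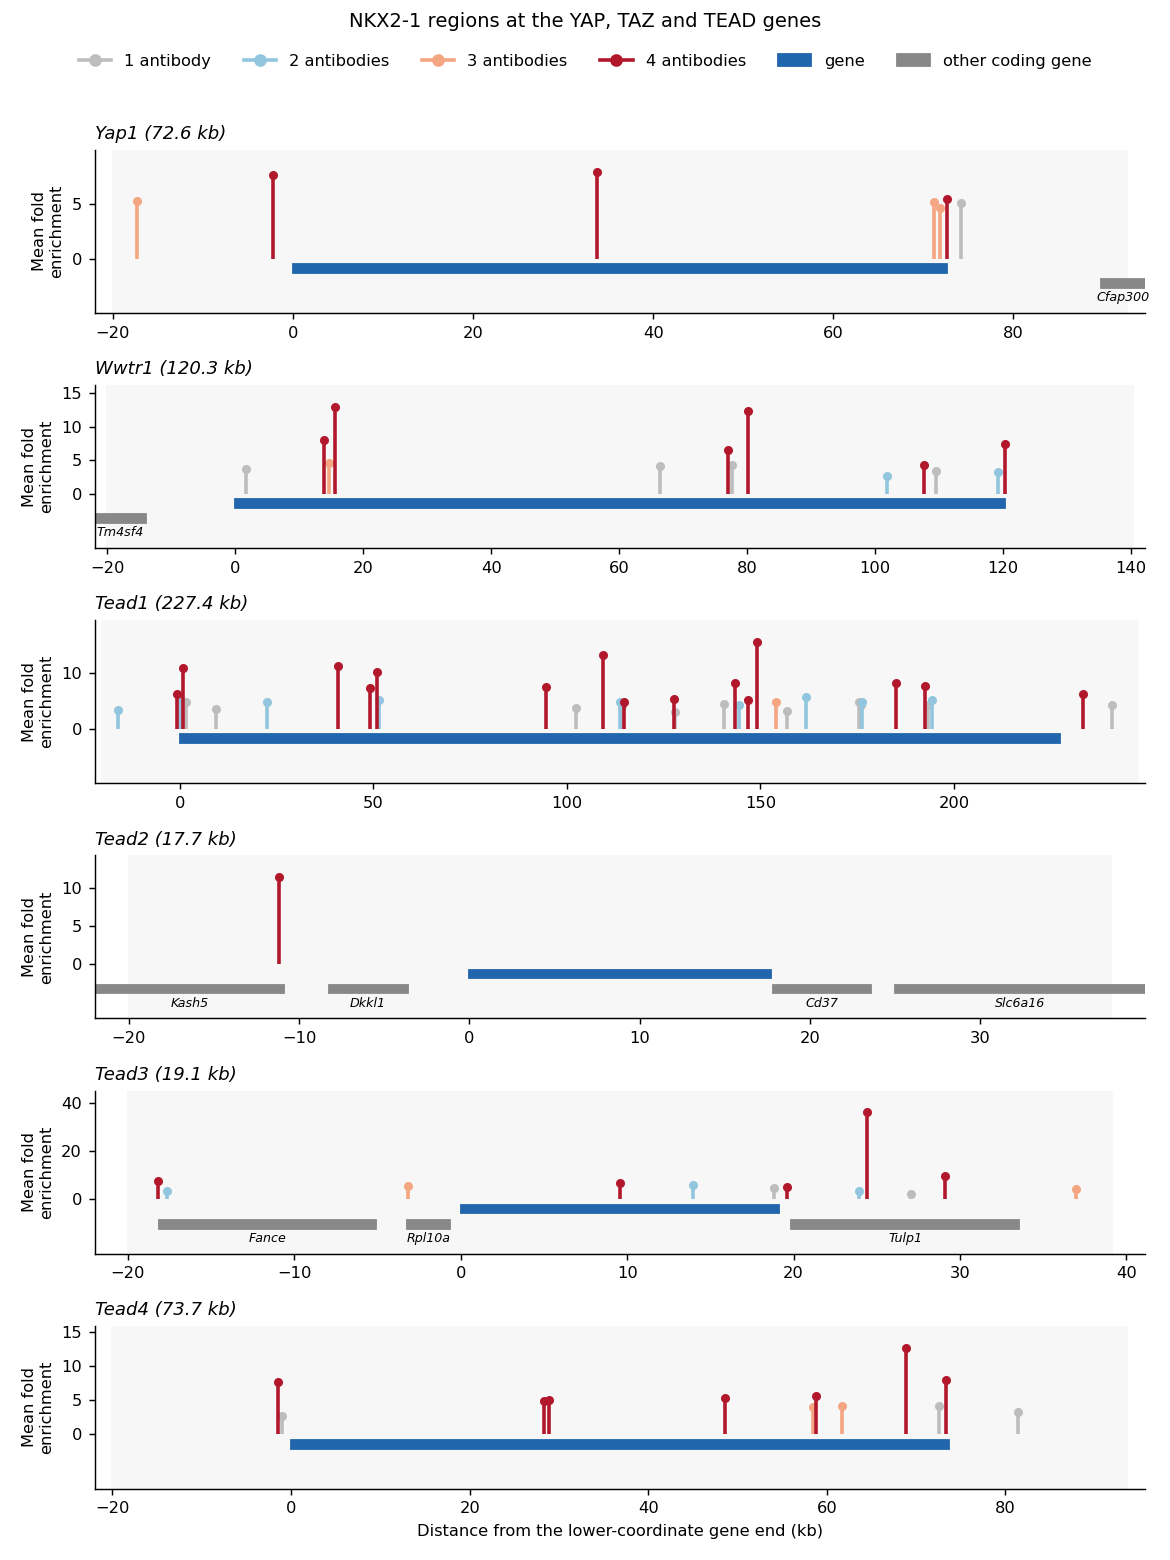
Regions along each gene, with the distance of the summit from the lower-coordinate gene end in kb on the x axis and the mean fold enrichment over the antibodies with a peak there on the y axis, whose scale differs between panels. Blue bars are the genes and grey bars other protein-coding genes; the highest region at Tead3, with a mean fold of 35.9, stands over Tulp1, and no region lies inside Tead2. Colours give the number of antibodies, and shading the window of 20 kb on either side.

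Ranked by the strongest region with all 4 antibodies, the order was Tead3 (mean fold 35.9, range over the 4 libraries 28.4 to 43.1), Tead1 (15.5, 12.3 to 19.2), Wwtr1 (13.0, 8.65 to 17.0), Tead4 (12.7, 10.1 to 15.2), Tead2 (11.5, 10.3 to 14.0) and Yap1 (7.89, 7.11 to 9.94). The range of Tead3 overlapped no other. Those of Tead1, Wwtr1, Tead4 and Tead2 overlapped each other, and that of Yap1 overlapped that of Wwtr1 alone. These ranges mix the antibodies. Compared within each antibody, Tead1 was above Wwtr1, Tead4 and Tead2 in all 4 libraries, and Wwtr1 was above Yap1 in all 4. The order among Wwtr1, Tead4 and Tead2 differed between antibodies. Among the 14013 protein-coding genes with such a region, whose median was 9.65, these values lay at percentiles 99.3, 78.9, 69.9, 68.5, 61.8 and 35.3. Each value is a maximum over the regions of a gene, and the percentiles were not adjusted for their number. Tead1, Tead4 and Wwtr1 had 15, 7 and 6 such regions, against a median of 1 over all protein-coding genes. With the summit required to lie inside the gene, the best value of Tead3 was 6.82, below that of the other 4 genes with a region. Over the 37 regions the median of the mean fold was 7.62, against 7.14 for all regions of the genome with all 4 antibodies, and 23 of 37 (62.2%, 44.8 to 77.5) lay above the latter.

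**Figure D3:**
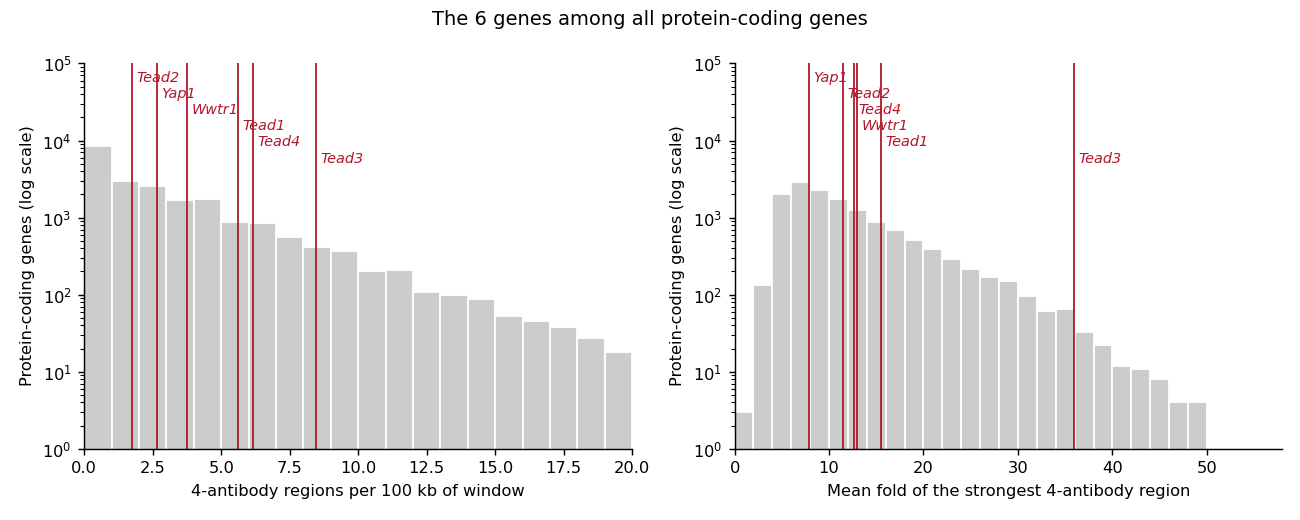
Distribution over protein-coding genes (y axis, number of genes on a log scale) of regions with all 4 antibodies per 100 kb of gene and flanks (left, all 21631 genes, 42 of them beyond the axis) and of the mean fold of the strongest such region (right, 14013 genes). Red lines mark the 6 genes. Tead3 is the highest of the 6 in both panels, at 8.46 per 100 kb and a mean fold of 35.9. Both values count regions in or nearer another gene, which are 4 of the 5 at Tead3. Tead2 is lowest in density at 1.73, and its 1 region also lies in another gene.

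The 4 antibodies kept the same broad order at these genes as over the genome. Peaks at the 6 genes numbered 47 with Abcam133737, 61 with Millipore07-601, 51 with Abcam76013 and 67 with Abcam133638, from lists of 40877, 57763, 41296 and 57891. In 31 of the 37 regions with all 4 antibodies, the scaled pileup of Millipore07-601 and Abcam133638 exceeded that of the other 2, as it did in 81.1% of such regions of the genome. The scaled pileup relative to Abcam133737 had a median of 1.48 for Millipore07-601, 1.03 for Abcam76013 and 1.40 for Abcam133638, against 1.49, 1.01 and 1.35 over the genome. In 29 of the 37 regions the 4 summits lay within 100 bp, and the median spread was 56 bp.

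Regions missed by 1 antibody at these genes most often lacked an antibody with a shorter list. Of the 9 with 3 antibodies, 4 lacked Abcam76013, 3 Abcam133737, 2 Millipore07-601 and none Abcam133638. Over the genome these shares were 44%, 46.5%, 5.04% and 4.37%. Among the 14 regions with 2 antibodies, 8 combined Millipore07-601 and Abcam133638, against 63.8% over the genome. The 21 regions with 1 antibody were weak, with folds of 2.23 to 5.08, and 9 came from Abcam133638, 7 from Millipore07-601, 3 from Abcam76013 and 2 from Abcam133737. No region with 2 or 3 antibodies exceeded a mean fold of 5.78.

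**Figure D4:**
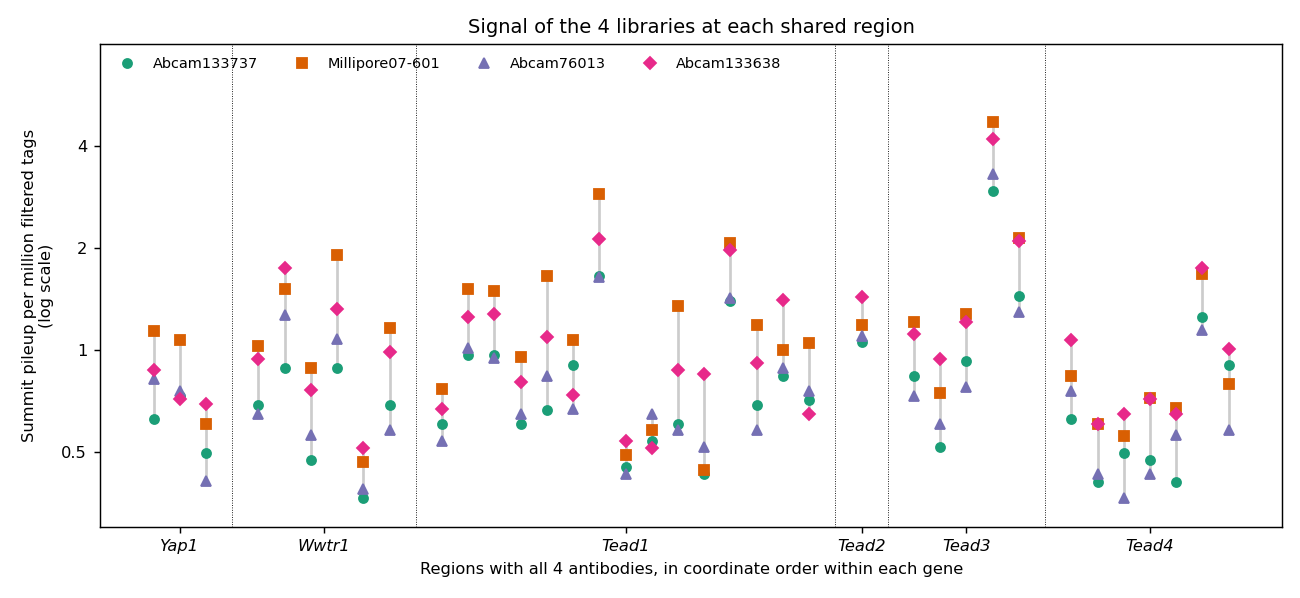
Pileup at the summit per 1000000 filtered tags (y axis, log scale) of the 4 libraries at each of the 37 regions with all 4 antibodies, in coordinate order within each gene (x axis); a grey line joins the lowest and the highest library. Millipore07-601 or Abcam133638 is highest in 36 of the 37 regions, and the Tead3 region inside Tulp1 reaches 2.94 to 4.72.

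The window of 20 kb set which regions were counted. The outermost region inside it lay 18.2 kb from Tead3 (4 antibodies, mean fold 7.76), and that of Yap1 lay 17.3 kb (3 antibodies, 5.20) and that of Tead1 16.1 kb (2 antibodies, 3.34) from the gene. The first outside lay 22.3 kb from Yap1 (4 antibodies, mean fold 4.76), 22.6 kb from Tead3 (2 antibodies, 4.38), 23.1 kb from Tead1 (4 antibodies, 7.50), 25.7 kb from Tead4 (3 antibodies, 4.33), 26.8 kb from Wwtr1 (1 antibody, 4.37) and 33.4 kb from Tead2 (4 antibodies, 7.14).

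Other genes of the pathway were taken from a list of 40. The 24 upstream genes hold kinases, scaffolds and junctional proteins that act upstream of YAP and TAZ. Of these, 21 had a region with all 4 antibodies (87.5%, 67.6 to 97.3). Of 15 target genes 14 did (93.3%, 68.1 to 99.8), against 64.8% of all protein-coding genes. The upstream genes were 10.2 to 280.4 kb long and the targets 2.43 to 176.4 kb, against the median of 17.3 kb. Gene length was not matched, and the list was chosen with earlier results of these data known. The intervals thus do not test these shares against 64.8%. Among genes with a region of all 4 antibodies, the median of the strongest mean fold was 14.2 for upstream genes and 8.70 for targets. It was 12.8 for the 6 genes above and 9.65 for all protein-coding genes. Each value is a maximum over the regions of a gene and was not adjusted for their number. The strongest upstream regions lay inside Taok3 (30.9) and Wwc1 (29.6), which act on the Hippo kinases, and inside the tight junction gene Tjp1 (26.0). Those of the targets lay inside the membrane repair gene Myof (25.9), near the receptor kinase gene Axl (20.7) and inside the angiomotin family gene Amotl2 (18.7). Amotl2, Lats2 and Ptpn14 are on both lists, so the upstream genes and the targets are not separate sets. Mob1a, Amot, Fat4 and Fjx1 had no such region. VGLL cofactors compete with YAP and TAZ for TEAD proteins. Of their 4 genes, Vgll4 had 21 regions with all 4 antibodies (strongest mean fold 17.9). Vgll1, Vgll2 and Vgll3 had no peak. Vgll4 is 109.4 kb long, and Vgll1, Vgll2 and Vgll3 are 18.4, 5.97 and 51.2 kb. Under the same rule any peak was found for only 76.7% of protein-coding genes, so its absence is not particular to these cofactors. Vgll4 was chosen after its values were seen.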

How the data were processed

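NKX2-1 was mapped by ChIP-seq in 4 antibody libraries and 1 input library, from lung tissue of 10-day-old mice. The authors' peak caller was MACS 2.1.2, run on every antibody library with the input as control; per the file headers it used 0.05 as the q cutoff and a genome size of 1.87 Gb, kept 1 tag at each position and scaled the input up. The submitters' processing notes also name Bowtie, Trimmomatic, FastQC, deepTools and SAMtools, and mm10 as the build; the versions of the others are not given in the sources used here. The deposited pileup signal is in tags at the summit, and the deposited fold enrichment is a ratio over the local background. The deposited p-value and q-value of each peak are given as −log10. Pileup and fold are the authors' values, used here to describe and rank peaks, and the pileup was divided by the filtered tags to compare libraries.

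Genes were the protein-coding genes of RefSeq (GRCm38.p6, autosomes and X), a table with start and end but no exons; strands came from the RefSeq promoter windows. The position of a region is the median summit of its antibodies. Shares have 95% intervals by the exact Clopper-Pearson method, for counting error alone. Depth, 43031331 to 46547989 filtered tags, limits the detection of weak peaks. Region counting was tested on simulated data. The samples were grouped by antibody, and no test was possible between libraries. The 6 genes and the pathway list were chosen with earlier results of these data known. Genes named beside them hold or lie nearer to a region, are most like a gene in their highest pileups over the 4 libraries, or have the 3 highest regions or none in the pathway lists; the gene most like Tead3 is not reported here. Alternatives were other windows, thresholds, overlaps and merging orders, and each antibody left out. Python 3.11.15, pandas 2.3.3, NumPy 2.4.6 and SciPy 1.17.1 were used.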

Additional observations from a re-analysis of the deposited data

How the results depend on the processing

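All 6 genes had a region with all remaining antibodies in every alternative run, except that Tead2 had none with a window of 10 kb or with summits inside the gene (5 genes), and Tead2 and Yap1 had none among the 10000 peaks with the highest fold per list (4 genes). The count of regions with all antibodies, 37, became 56 with a window of 50 kb, 24 with a fold of at least 5 and 7 with the 10000 strongest peaks. The count of all regions, 81, became 50 with a fold of at least 5 and 14 with the 10000 strongest peaks. Leaving out each antibody in turn gave 37 to 41 regions with all 3 others, of 72 to 79, or 50.6% to 52.7%, at all 6 genes. Other alternatives (a −log10 q of at least 5, a reciprocal overlap of 50%, summits within 100 bp in linked pairs, so that all 4 may span more, merging over the genome first) gave 33 to 37 regions with all antibodies. The best mean fold of a gene stayed within the SD over its 4 libraries in 72 of 74 cases. The exceptions were 6.82 at Tead3 with summits inside the gene and 10.1 at Yap1 with 50 kb. Most of the 74 cases kept the very same peaks, and leaving out an antibody kept the values of the 3 others. This count is therefore no independent check of the values. Settings in which a gene had no region are not among the 74. The lost regions under the stricter thresholds follow from there being fewer peaks. No paired analysis was possible because each antibody has 1 library and no test was made. All 4 lists share 1 q cutoff, and a peak missing for an antibody may be below detection in its library.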

Other observations

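Most peaks at the 6 genes had no local input level of their own. The recovered background equalled the genome-wide value of the library (tolerance 0.02 tags) for 144 of 226 peaks (63.7%, 57.1 to 70.0), against 59.95% to 63.3% of the whole lists. For these peaks the fold is a pileup over a constant.

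For 5 of the genes, the protein-coding gene elsewhere most like it was found from the log2 of the highest pileup per 1000000 filtered tags in each of the 4 libraries, with the Euclidean distance as the measure. The highest pileup was taken in each library alone, and at Yap1 and Wwtr1 it came from different regions in different libraries. These were Ccdc58 for Yap1 (distance 0.08), Igfbp3 for Wwtr1 (0.09), Trappc9 for Tead1 (0.03), Aldh18a1 for Tead2 (0.08) and Cyrib for Tead4 (0.06), among 13934 to 13939 genes compared. With 4 libraries and so many genes, a close match says little about any pair.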
